A study of Mus musculus with 8 samples.

Results

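The sequence from +1 kb to +5 kb downstream of CpG-rich transcription start sites was examined for DNA methylation in mouse B and T lymphocytes. The start of a gene was the outermost end of its annotation, which need not be the start in use. A start was taken as CpG-rich when at least 40 CpGs within 500 bp to either side were covered by 5 or more reads in all 4 deposited files. Of 13520 autosomal protein-coding genes over 10 kb long, 8057 had such a start (59.6%). The region of each, read in the direction of the gene, is a member of the set, and 8044 members held at least 8 covered CpGs and were tested. A median member held 40 covered CpGs (range of tested members 8 to 315) and belonged to a gene of 37.5 kb. Some members are not independent of each other, since 149 overlapped the region of another member and 8 shared a start with another gene. The threshold divides a continuum: 595 genes had 40 to 44 CpGs and 486 had 35 to 39.

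Spleens were taken from mice of the inbred strain C57BL/6J at 6 to 8 weeks of age, and the labels name no treatment or genetic modification for any group. The B cells were CD43- resting cells, and the T cells were naive CD4+ cells, sorted as CD62L high, CD44 low and CD25-, each pooled over several animals. The 8 samples formed 4 groups of 2, by sex and cell type, and each group had 1 file. Values of the 4 files are given below in the order female B, female T, male B, male T unless stated otherwise. Whether a file merges both samples is not stated, so there was no spread between replicates within a group. A difference between B and T cells was seen once in each sex. Whole-genome bisulfite sequencing reports the percentage of reads in which a CpG resisted conversion. Plain bisulfite reads 5-methylcytosine and 5-hydroxymethylcytosine alike, whereas prior oxidation removes the hydroxymethylated part. The labels mention oxidation of part of each sample while the file names give bisulfite only, so levels were taken as the sum of both marks, and this could not be checked in the files. Mean depth over autosomal CpGs ranged from 14.6 to 17.7 reads per file, and depth over the members was similar, at 14.6 to 18.2 reads per CpG. Read counts summed over CpGs are called observations below, since a read is counted once at each CpG it covers, and they came to 278275973 to 339923001 per file. Counting error alone gave 95% Wilson intervals of 0.24 to 7.47 percentage points to either side for the regions of genes named by the rules given at the end. Windows of 1 kb and other genes are not covered by this range, and their intervals are wider where observations are fewer. The true error could be larger, since observations of 1 read and PCR copies are not independent. The upper limits given for a count of 0 share this.

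The labelled cell types were checked within 1 kb of the starts of lineage genes. The B cell genes Cd79a, Cd79b and Ms4a1 were at 8.19% to 17.0% in the B cell files and at 35.9% to 93.6% in the T cell files. The T cell genes Cd3d, Cd3e, Cd247 and Lck were at 1.87% to 19.2% in the T cell files and at 67.0% to 95.5% in the B cell files. In a mixed population of cells, a lower level at a region cannot be told apart from a larger share of cells without methylation there.

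Most CpGs of mammalian genomes are methylated, whereas clusters of CpGs at promoters, known as CpG islands, are usually kept free of methylation. The body of a transcribed gene is usually methylated again, and the flank where one state passes into the other, often called the shore, is known to differ between cell types. Developmental regulators silenced by Polycomb proteins often lie in unmethylated domains that extend well past the island, sometimes called methylation valleys. Introns just behind a promoter also often hold enhancers, which lose methylation in the cell types that use them.

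The sequences below were read from the GRCm38 reference for the members with the greatest difference in each direction, to show what changed state in the middle of a gene. Each is the 300 bp stretch of the region with the greatest mean difference between B and T cells, printed in the direction of its gene with every CpG in capitals. All 4 lie in introns of GENCODE M21. The Tcf7 stretch (chr11:52279469-52279768, minus strand) began 3247 bp past the start. The Pik3r5 stretch (chr11:68434504-68434803, plus strand) began 2383 bp past the start. The Tcf3 stretch (chr10:80429736-80430035, minus strand) began 3613 bp past the start, and the Chst3 stretch (chr10:60216233-60216532, minus strand) 2729 bp past the start.
Tcf7: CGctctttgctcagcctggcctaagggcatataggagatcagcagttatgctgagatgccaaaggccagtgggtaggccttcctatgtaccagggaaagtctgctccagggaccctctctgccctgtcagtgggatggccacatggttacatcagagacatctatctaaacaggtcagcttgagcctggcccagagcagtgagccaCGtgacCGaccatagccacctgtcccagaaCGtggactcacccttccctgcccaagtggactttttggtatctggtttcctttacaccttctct
Pik3r5: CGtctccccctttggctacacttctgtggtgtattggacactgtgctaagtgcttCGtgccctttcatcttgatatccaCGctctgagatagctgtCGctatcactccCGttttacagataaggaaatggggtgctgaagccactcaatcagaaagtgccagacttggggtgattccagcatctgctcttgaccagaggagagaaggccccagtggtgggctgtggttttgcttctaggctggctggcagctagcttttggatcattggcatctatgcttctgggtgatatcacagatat
Tcf3: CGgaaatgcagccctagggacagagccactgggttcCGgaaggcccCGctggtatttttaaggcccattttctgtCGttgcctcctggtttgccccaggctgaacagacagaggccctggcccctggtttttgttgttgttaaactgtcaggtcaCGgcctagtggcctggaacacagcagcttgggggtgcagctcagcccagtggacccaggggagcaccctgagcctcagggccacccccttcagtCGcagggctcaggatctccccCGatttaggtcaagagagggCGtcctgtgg
Chst3: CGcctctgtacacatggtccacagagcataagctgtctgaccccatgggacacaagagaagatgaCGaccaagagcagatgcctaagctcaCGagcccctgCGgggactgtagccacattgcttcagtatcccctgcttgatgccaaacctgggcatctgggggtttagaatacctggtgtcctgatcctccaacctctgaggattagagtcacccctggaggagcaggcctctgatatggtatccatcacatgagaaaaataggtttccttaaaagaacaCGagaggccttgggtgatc

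These stretches are not islands: they hold 4, 5, 8 and 5 CpGs, in that order, against a median of 3 over 300 bp windows of all members. The 4 CpGs of Tcf7 were methylated in 95.7% of female B and 97.3% of male B observations, and in 0 of 104 and 0 of 102 observations of female and male T cells, which allows levels of up to 2.88% and 2.94%. The Pik3r5 stretch stood at 97.4% and 94.2% in female and male B cells and at 1.27% and 1.31% in T cells. The 8 CpGs of Tcf3 showed the opposite state, with 1.38% in female B cells, 0 of 155 observations in male B cells (up to 1.94%), 99.5% in female T cells and 95.9% in male T cells. The Chst3 stretch was at 3.70% in female B cells and at 0 of 121 observations in male B cells (up to 2.48%), against 95.2% (female) and 93.8% (male) in T cells. The stretches were chosen by this difference. In each of the 4, both B cell files lay at one end of the scale and both T cell files at the other.

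Short motifs of lymphocyte transcription factors were searched on both strands of the same stretches. GGAA, the core bound by ETS factors, was found in all 4 (4, 2, 4 and 1 times in the order above), but 95.2% of the 104729 windows of 300 bp in the members hold it. TGTGGT, bound by RUNX factors, was present 2 times in the Pik3r5 stretch only, and 22.2% of windows hold it. CTTTGA, bound by TCF and LEF factors, was in none of the 4 stretches, and 20.5% of windows hold it. CCCNNGGG, a core of the EBF site, occurred 2 times in the Tcf3 stretch and 1 time in the Chst3 stretch, against 6.58% of windows. The motifs do not contain one another, and a match is a description of letters and not a bound site.

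Levels around the starts were averaged in bins of 250 bp to place the regions. At the CpG-rich starts the mean level was lowest in the first 250 bp downstream, at 1.57% to 1.74% over the 4 files. It then rose to 44.6% to 45.1% at +1 kb to +1.25 kb, 77.7% to 78.7% at +2 kb to +2.25 kb and 86.1% to 87.0% at +4.75 kb to +5 kb. The level at the near end of the members was thus between that of the island and that of the gene body. Within them, CpGs of first exons had the lowest level, at 31.8% to 33.1% over 8702 CpGs. Later exons stood at 60.4% to 62.8% over 36588 CpGs and introns at 67.6% to 69.2% over 322677 CpGs. The CpGs of first exons came only from the 300 members with a first exon over 1000 bp. Regions of those members had median levels of 54.26% to 56.55%. Distance from the start was not matched between exons and introns. Averaged over members, the level was 74.2% in female B, 73.0% in female T, 73.7% in male B and 73.0% in male T cells.

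**Figure D1:**
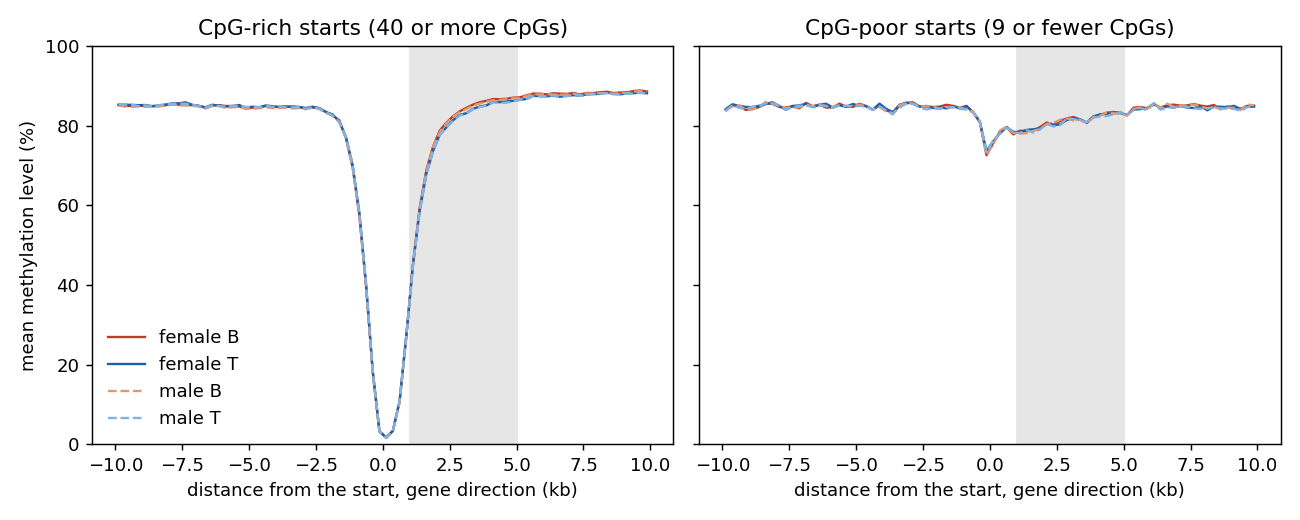
Mean methylation level (%) in bins of 250 bp against distance from the start (kb, in gene direction), 1 line per file, for 8057 CpG-rich starts (left) and 1839 CpG-poor starts with 9 or fewer CpGs (right); the shaded band is +1 to +5 kb. Levels at CpG-rich starts fall below 2% and return to about the flanking level within the band, and the 4 files nearly coincide.

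The width of the unmethylated domain was measured from the start to the downstream edge. The edge was the middle CpG of the first run of 5 covered CpGs whose pooled level reached 50%, searched to 10 kb. The median downstream edge lay at 1194 bp in female B, 1205 bp in female T, 1201 bp in male B and 1203 bp in male T cells. The middle of the distribution was narrow, with quartiles of 907 and 1638 bp in female B cells and 912 and 1676 bp in male T cells. In each file 33.0% to 33.5% of edges fell short of +1 kb, and members with a mean width under 1 kb had median region levels of 92.1% to 92.2%. Edges at 2 kb or more were found for 14.4%, 15.4%, 14.5% and 15.5% of members in the 4 files. At 5 kb or more, beyond the end of the region, there were 69, 100, 70 and 95 members. Both B cell files thus had fewer of these long domains than both T cell files.

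Measured from the start used here, domains reached farther into the gene than away from it. That start was the outermost annotated end of the gene. Where transcription begins farther inside, more of the domain falls on the downstream side. The part this plays in the comparison was not tested. The median edge on the upstream side, measured in the same way, lay at 759 to 770 bp, and the downstream edge was the farther of the pair in 76.1% to 77.0% of members. The first exon ended before the edge in 96.9% to 97.1% of members, so the domain usually ran into the first intron. The passage from one state to the other was short. Edges set at a level of 30% and of 70% lay a median of 339 to 348 bp apart. The 5 CpGs that defined the edge in male B cells spanned a median of 381 bp (75th percentile 605 bp). Differences in edge position below this span are therefore not resolved.

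Width followed several features of the start and of the gene. The median edge in male B cells rose from 1040 bp with 40 to 59 CpGs around the start to 1178 bp with 60 to 79, 1298 bp with 80 to 99 and 1501 bp with 100 or more. It also rose with the length of the first exon, from 1091 bp for exons up to 250 bp to 1620 bp for exons over 1000 bp. The 1580 members with another annotated start of a protein-coding transcript between +0.5 kb and +5 kb had a median of 1405 bp, against 1163 bp for the other 6477. The other 3 files gave the same order in each case. Across the 8057 members, Spearman's rho of mean width was 0.27 with the number of covered CpGs around the start. It was 0.26 with first exon length and 0.17 with gene length. For the sequence from +1 to +5 kb itself, rho was 0.28 with the observed over expected CpG ratio. It was 0.20 with the number of CpGs in the reference there and -0.00 with GC content. These correlations are across genes, which share files and base composition and are not independent. The number of CpGs around the start also enters the choice of members.

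At the far end of the distribution, 16 members had no edge within 10 kb in any of the 4 files. Most of them encode developmental transcription factors, and the predicted gene Gm2956 and the corepressor gene Skor1 were exceptions. Among them were Pax1, Pax3, Pax6 and Pax9 of the paired box family, Lhx2 and Lhx9 of the LIM homeobox family, Shox2, Hmx1 and Irx5 with other homeodomains, the zinc finger genes Sp9 and Zic4, and Sim1. Gm2956 had too few covered CpGs in the region to be tested, so the extent of its domain is uncertain. The region of Sp9 was at 1.3%, 1.91%, 1.73% and 2.03% in the 4 files, over 245 CpGs. At Pax6, required for eye development, the 4 files gave 6.67%, 7.59%, 7.16% and 8.47%. Another 12 members had no edge in 1 to 3 files. Where an edge was found in every file, the widest were Onecut2 (9254 to 9405 bp), Islr (9154 bp in all files), Ppp6r1 (8114 bp in all files), Slc17a6 (7823 bp in all files) and Npas3 (6457 to 7280 bp). Onecut2 and Npas3 encode transcription factors of the liver and nervous system, Slc17a6 a vesicular glutamate transporter of neurons, Ppp6r1 a phosphatase subunit and Islr, which has 8 other annotated starts nearby, a secreted leucine-rich repeat protein. Ppp6r1 therefore had a domain of the same width in both cell types although it is a generally expressed gene.

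A list of 80 developmental transcription factors had 35 members, and their median width was 6092 bp against 1208 bp over all members. This list and the others below were chosen with earlier results of these data known, so their values are descriptions. Of the 35, 23 had a mean width of 4 kb or more, compared with 161 of all 8057 members. Their regions were at a median of 9.91%, 11.3%, 9.51% and 10.4% in the 4 files. Sox5 and Foxp2 stood apart. Foxp2 was at 51.3% to 57.1% in the region, and Sox5 had 92.5% to 94.6% in the region and edges at 926 to 993 bp. The housekeeping list, of which 50 of 60 genes were members, had a median width of 1464 bp. Its narrowest member, Smc1b, had an intermediate start (36.8% to 48.2%) and edges at 79 to 90 bp, unlike an unmethylated housekeeping start. Genes of the chromatin and DNA methylation machinery had 34 members of 49 listed and a median width of 2052 bp.

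At the near end were starts that carry many CpGs and are nonetheless methylated. In 7447 members the start itself was below 10% in all 4 files, whereas 43 members were at 50% or more in all 4. The narrowest domains, with edges at 10 to 16 bp in every file, belonged to Sohlh2, Hsf5, Tdrd1, Ankrd31 and, level with each other, Sycp1 and Ddx4, which act in the germ line. The start of Hsf5 was at 97.1%, 98.2%, 97.7% and 98.5% in the 4 files and its region at 95.9%, 95.2%, 94.7% and 94.0%. Further germ-line genes among the 43 included Dazl, Mael, Brdt, Stk31, Sycp2, Sycp3, Hormad1, Msh4 and Mov10l1. Not all of the 43 are germ-line genes, and Jade1, Krt72 and Arhgef18 were also among them. The region of Dazl was only partly methylated, at 43.2%, 42.1%, 29.55% and 37.6% in the 4 files over 12 CpGs. Sycp1 and Sycp2 had too few covered CpGs in the region to be tested. The reverse arrangement was seen at Nsd1, a histone methyltransferase gene. Its annotated start was at 79.01% to 89.57%, and its region was at 15.1%, 11.96%, 17.6% and 11.7% in the 4 files. Its unmethylated domain thus lay downstream of the start used here.

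**Figure D2:**
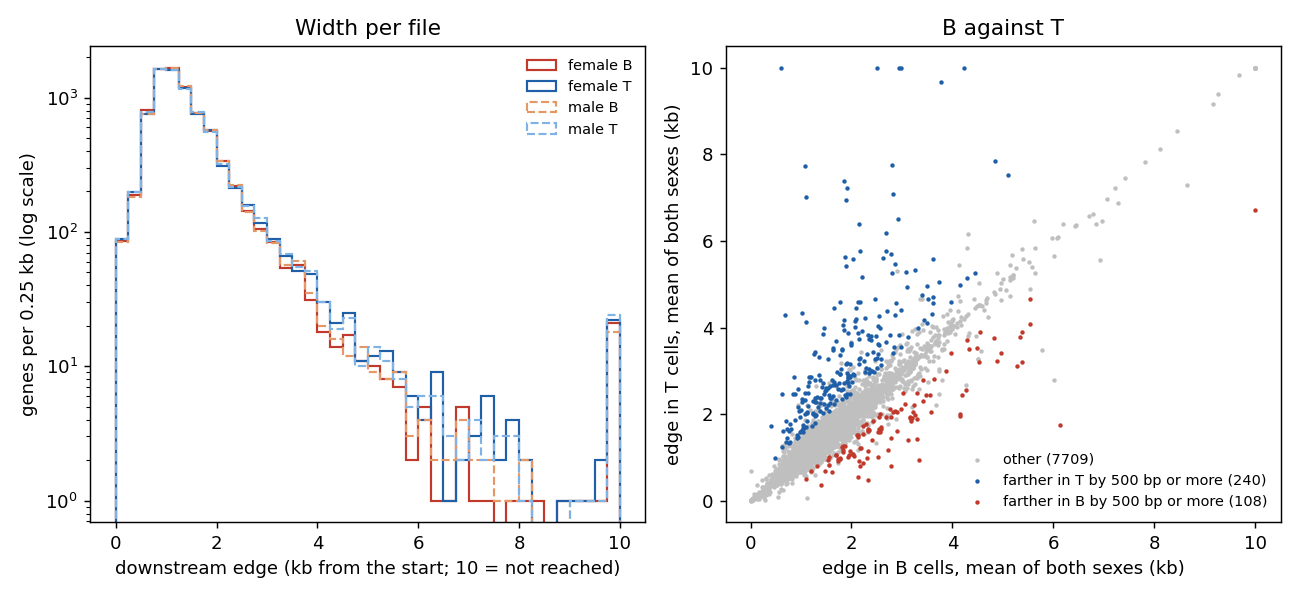
Left: number of members (log scale) by position of the downstream edge (kb from the start, bins of 0.25 kb; the last bin holds edges not reached within 10 kb), 1 line per file. Right: mean edge over both sexes in T cells against B cells (kb), 1 point per member; 240 points lie farther out in T and 108 farther out in B by 500 bp or more in both sexes.

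B and T cells were then compared over the whole region by a quasi-binomial model on methylated and unmethylated observations, with cell type and sex as terms. Its spread rests on 1 residual degree of freedom per region, pooled across regions, so that very small p-values overstate the certainty for any single region. A region was called at a Benjamini-Hochberg adjusted p under 0.05 with a mean difference of at least 10 percentage points. Among members, 504 of 8044 were called higher in B cells (6.27%) and 261 lower (3.24%). Over the regions of all 13249 genes tested, members included, 5.23% were called higher and 3.15% lower in B cells. The share lower in B cells was thus close to the background, and the share higher in B cells was above it by about 1 percentage point. Genes with fewer than 40 CpGs at the start gave 3.63% higher and 156 of 5205 lower, and the CpG-poor starts 3.17% and 2.48% over 1610 regions. The difference in share between kinds of start was not tested. Over all members the median difference was small, at 0.27 points (0.22 points over all regions tested), while 219 members differed by 20 points or more and 27 by 40 points or more.

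Because a call uses both sexes, calls were also made in one sex alone by Fisher's exact test and read in the other, whose files had no part in the choice. Of 595 members called higher in B cells in females, 562 were also higher in B cells in males (94.5%) and 398 by 10 points or more (66.9%). Among all members 52.1% were higher in B cells in males, and 7.02% by 10 points or more. Of 283 members called lower in B cells in females, 278 were also lower in males (98.2%) and 204 by 10 points or more (72.1%), against 47.8% and 3.95% of all members. The reverse reading, from males to females, gave 97.1% in the same direction for members higher in B cells (70.9% by 10 points or more) and 95.2% for those lower (65.1%). The shares of all members in females were 55.2% and 7.52% for higher, and 44.8% and 3.62% for lower. The 2 sexes differ in animals and library, so this comparison covers the spread between pools that the files allow.

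**Figure D3:**
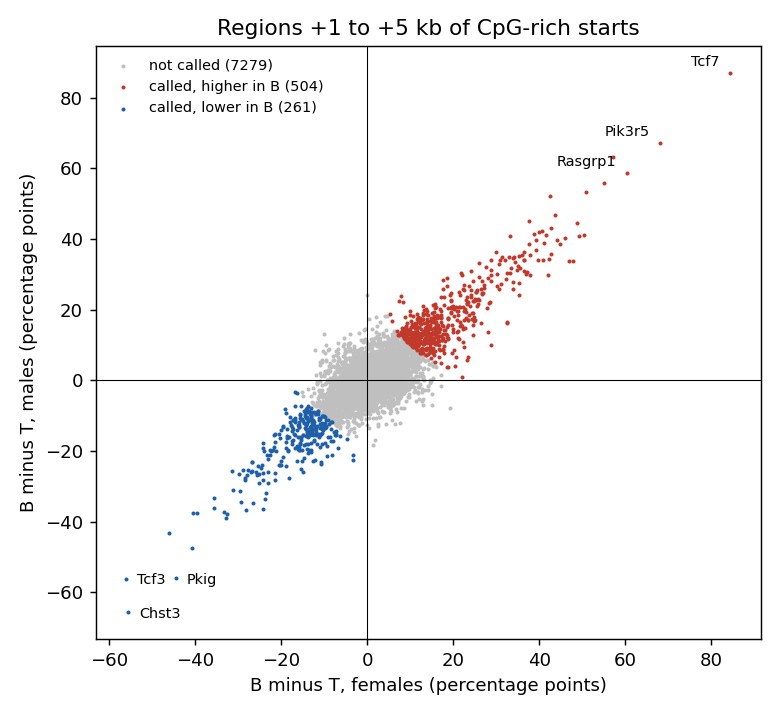
B minus T difference (percentage points) in males against females for the 8044 tested members, 1 point per region; red marks the 504 called higher in B cells, blue the 261 called lower. The called regions lie along the diagonal, from Tcf7 at 84.4 and 87.0 points to Chst3 at -55.6 and -65.7 points.

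The region of Tcf7 showed the widest separation of all. Tcf7 encodes TCF-1, a transcription factor that specifies the T cell lineage and is kept in naive T cells. Its region (chr11:52278015-52282014, 58 CpGs) was methylated at 84.8% in female B, 0.34% in female T, 87.2% in male B and 0.17% in male T cells over 964 to 1170 observations per file. The difference was 85.7 points (adjusted p = 9.71e-57, quasi-binomial model). The start itself was below 2% in all 4 files. All 4 windows of 1 kb in the region were called, and the first of them differed least, by 73.0 points.

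Tcf7 and Prkcq were the genes of the T cell identity and signalling list among the 8 regions with the greatest excess in B cells. Pik3r5, a regulatory subunit of phosphoinositide 3-kinase, was at 88.2% and 87.9% in female and male B cells and at 20.1% and 20.9% in T cells. Rasgrp1, which activates Ras below the T cell receptor, was at 69.1%, 8.72%, 68.0% and 9.21% in the 4 files (chr2:117338002-117342001). Prkcq, the protein kinase C isoform of the T cell receptor pathway, was at 70.02%, 26.3%, 70.8% and 23.95%. By the choice of genes, both B cell files lay above both T cell files for each of these, with gaps of more than 43 points in each sex. Il6st, the shared signalling subunit of receptors for interleukin 6 and related cytokines, was at 79.6%, 30.9%, 78.2% and 33.7%.

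Genes with other roles had differences of the same size. Ugcg, the enzyme that makes glucosylceramide, was at 73.8%, 16.7%, 78.3% and 15% in the 4 files. Aak1, a kinase of clathrin-mediated endocytosis, was at 77.9%, 22.9%, 76.8% and 20.9%. Dennd2d, of a family that activates Rab proteins, was at 72.9%, 22.2%, 76.8% and 23.4%. The mean differences of these 8 genes ran from 45.3 to 85.7 points, with adjusted p of 1.06e-28 or below. All 8 starts were under 7% in every file, so differences of this size lay beyond the 500 bp to either side of the start.

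Tcf3 had the second greatest difference among the regions lower in B cells, and Chst3 the greatest. Tcf3 encodes the E2A proteins, needed for commitment to the B lineage. Its region (chr10:80428648-80432647, 50 CpGs) was at 21.8% in female B, 77.9% in female T, 20.8% in male B and 77.1% in male T cells, a difference of -56.2 points (adjusted p = 4.29e-37). GENCODE annotates 3 other starts between +0.5 kb and +5 kb. Chst3, a chondroitin sulfotransferase gene, was at 31.0%, 86.6%, 22.7% and 88.4% (chr10:60214261-60218260; difference -60.6 points, adjusted p = 1.43e-40). Lyn, a Src family kinase that acts at the B cell receptor, was at 30.7%, 70.3%, 31.9% and 69.6%, and its start was under 5% in all files. All 3 genes were chosen by their difference in both sexes, so that both B cell files lay below both T cell files.

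The other regions with the greatest deficit in B cells belonged to genes with other roles. Pkig, an inhibitor of protein kinase A, was at 45.4%, 90.0%, 35.1% and 91.2% in the 4 files. Cyb561a3, a cytochrome of lysosomes, was at 37.4%, 83.4%, 35.7% and 78.9%. Snap29, a membrane fusion protein, was at 55.9%, 96.6%, 47.5% and 94.9%. Snx8, a sorting nexin, was at 51.6%, 92.1%, 52.2% and 89.8%. Recql5, a DNA helicase, was at 57.3%, 93.0%, 55.3% and 91.5%. The last 5 differences ran from -50.3 to -35.9 points, and by the choice of genes the B cell files lay below the T cell files in both sexes. At Snap29 and Pkig the female B file was 8.38 and 10.3 points above the male B file. The sex term of the model, which covers both cell types, had adjusted p of 0.776 and 0.873, and the difference between the B cell files alone was not tested.

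**Figure D4:**
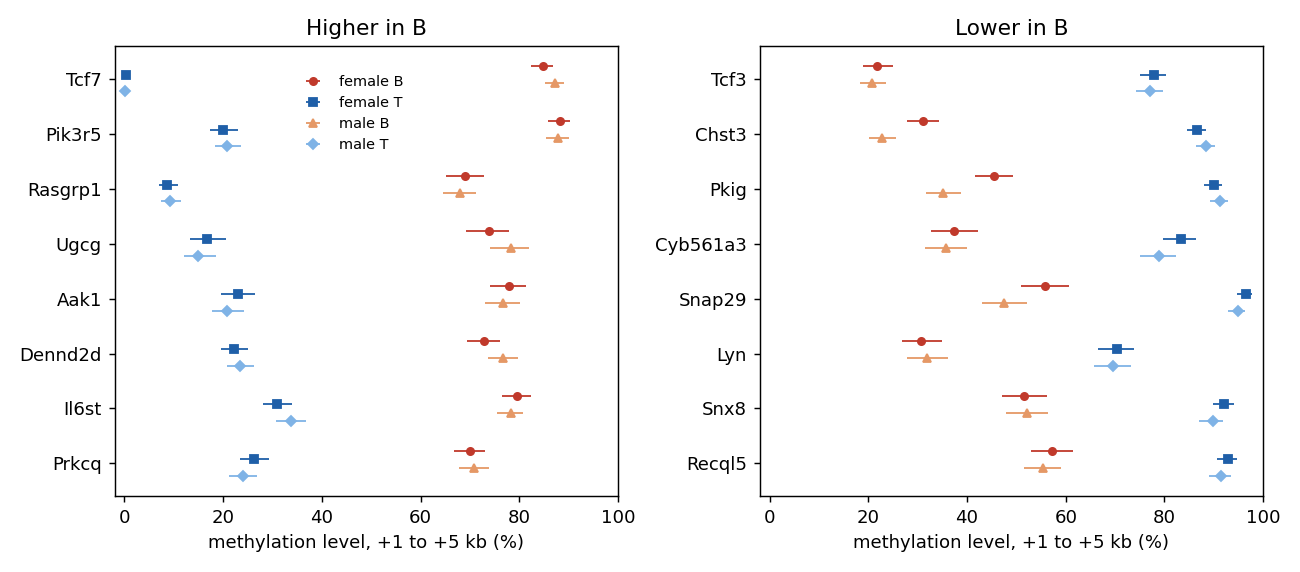
Methylation level (%) of the region +1 to +5 kb in each file for the 8 members with the greatest differences in each direction; points are single files and bars their 95% Wilson intervals, which cover counting error only. The 16 genes were chosen by the smaller of their differences in both sexes, so B and T cell files lie apart by selection. Levels in females ran from 84.8% against 0.34% at Tcf7 to 57.3% against 93.0% at Recql5.

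Several features of the called regions were not used for the calls. The start was below 10% in all 4 files in 493 of the 504 members higher in B cells (97.8%) and in 247 of the 261 lower (94.6%), against 7439 of 8044 tested members (92.5%). Median mean width was 1589 bp in the first set and 1379 bp in the second, against 1208 bp over all tested members. The share called higher in B cells ran from 2.94% of members with a width under 1 kb to 6.45% at 1 to 2 kb, 12.8% at 2 to 4 kb and 13.1% at 4 kb or more. The shares called lower were 2.29%, 3.49%, 4.97% and 1.25%, the last from 2 of 160 members. Median levels of that last class were 7.09% to 8.04%, which left little room for a call lower in B cells. A width computed from the same files also takes up part of the difference, so these shares are descriptions. With CpGs at the start the share higher in B cells ran from 4.601% (40 to 59 CpGs) to 10.4% (100 or more), whereas the share lower stayed between 2.89% and 3.46%. GC content differed little, with medians of 43.5%, 44.9% and 44.02% in the sets higher, lower and all.

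Differences were also called in windows of 1 kb, for which a call needed an adjusted p under 0.05 and a difference of 20 points or more. Windows shared 1 common dispersion, with none of their own, so their p-values take no account of spread that differs between windows. Among 30622 windows of members, 1091 were higher in B cells (3.56%) and 612 lower (2.00%), against 3.10% and 1.89% of 49574 windows of all genes. The share higher in B cells was 2.65% at +1 to +2 kb, 4.17% at +2 to +3 kb, 4.10% at +3 to +4 kb and 3.37% at +4 to +5 kb. The share lower was 1.80%, 2.18%, 1.94% and 2.08%. A window was called in 1266 members, and in 946 of them it was a single one. In 596 members a called window lay in a region that was not itself called. The matching shares of genes were not determined over all genes, so these 3 counts say nothing particular to the members.

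The stretch from -5 to -1 kb on the other side of the same starts gave fewer calls. In it 2.74% of 8032 members were higher in B cells and 2.63% lower, and 2.68% and 2.40% of all genes. From +5 to +9 kb, further into the gene, 4.54% of 8000 members were higher in B cells and 2.90% lower, against 3.97% and 2.64% of all genes. Averaged over members, B exceeded T by 1.12 (females) and 0.69 (males) points from +1 to +5 kb, by 0.62 and 0.40 points from +5 to +9 kb, and the difference upstream was 0.06 and -0.22 points. Over CpG-poor starts it was 0.36 and 0.28 points from +1 to +5 kb. The size over members depended on the averaging. With all reads pooled it was 1.72 (females) and 0.46 (males) points from +1 to +5 kb. A mean over CpGs gave 0.77 and 0.66 points, and a minimum of 10 reads 1.04 and 0.65 points. An exact permutation test of 2 B cell files against 2 T cell files cannot give a two-sided p below 0.333, so no p is given for the mean difference. The female B file was also the highest over all autosomal CpGs, at 80.7% against 79.5% to 79.7% in the other 3. The part of this difference in the excess of female B cells over the regions was not tested.

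The edge of the domain itself moved in some genes. A shift was counted where the edge lay 500 bp or more farther out in one cell type in both sexes. The edge was farther out in T cells in 240 members (2.98%) and in B cells in 108 (1.34%). Between the sexes, in both cell types, it was 500 bp or more apart in 39 (0.484%), with 21 farther out in females and 18 in males. The same CpG marked the edge in female and male T cells in 51.2% of members and in female and male B cells in 47.4%, against 40.8% between B and T cells of females and 39.9% of males. Of the 348 shifted members, 179 were called over the region, against 765 of all 8044 tested members (9.51%). The median shift was 1094 bp for edges farther out in T and 911 bp for those farther out in B. In the other direction, 131 of the 504 regions called higher in B cells had an edge 500 bp or more farther out in T cells in both sexes (26.0%, against 2.98% of all members). Of the 261 called lower, 46 had an edge as much farther out in B cells (17.6%, against 1.34%). All 4 edges lay within 100 bp of each other in 139 (27.6%) of the first set and 70 (26.8%) of the second, against 47.9% of all tested members. Edges and calls come from the same reads, so these shares are descriptions.

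The greatest outward shifts in T cells included master regulators of the lineage. At Tcf7 the edge lay at 598 and 612 bp in female and male B cells and was not reached within 10 kb in either T cell file. Bcl11b, a zinc finger factor required for T cell commitment, had edges at 3457 and 2435 bp in female and male B cells and none within 10 kb in T cells. Its region was at 31.0%, 0.39%, 26.3% and 0.37% in the 4 files. Satb1, a chromatin organizer abundant in thymocytes, had edges at 2510 and 2492 bp in B cells and none within 10 kb in T cells, and its region as a whole differed by 8.54 points and was not called. Its window at +2 to +3 kb was called, at 46.7%, 0.69%, 59.2% and 2.45% in the 4 files, as was that at +4 to +5 kb, by 29.7 points. Stk17b, a kinase that tunes T cell receptor signalling, had edges at 2574 and 3394 bp in B cells and again none within 10 kb in T cells. Rasgrp1 moved from 1087 and 1081 bp in B cells to 7723 bp in both T cell files. Arid1a, a subunit of BAF chromatin remodelling complexes, moved from 1108 bp in both B cell files to 7023 bp in both T cell files while its region as a whole held 1.18% to 3.11%. Its window at +1 to +2 kb, with 10 CpGs, was at 50.8%, 19.3%, 55.3% and 21.5% in the 4 files and was called, whereas the other 3 windows were below 1% in every file.

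Shifts in the other direction were shorter by the smaller of both sexes, with edges not reached set at 10 kb. A shift that involves such an edge, as at Grk2, is a lower bound. Chst3 had its edge at 3338 bp in both B cell files and at 882 and 999 bp in female and male T cells. Tcf3 moved from 2005 bp in both T cell files to 4152 bp in both B cell files. Grk2, a kinase that desensitizes receptors coupled to G proteins, had an edge at 6719 bp in both T cell files and none within 10 kb in B cells. Axin2, an inhibitor of Wnt signalling, had edges at 5242 and 5297 bp in female and male B cells and at 3107 bp in T cells, and its region differed by -9.54 points (adjusted p = 6.14e-13), short of the 10 points needed. Pcdh17, a protocadherin, and Mdh1, the cytosolic malate dehydrogenase, had shifts of 1954 bp or more in both sexes with differences over the region of -1.15 and -1.41 points (adjusted p = 0.217 and 0.875).

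**Figure D5:**
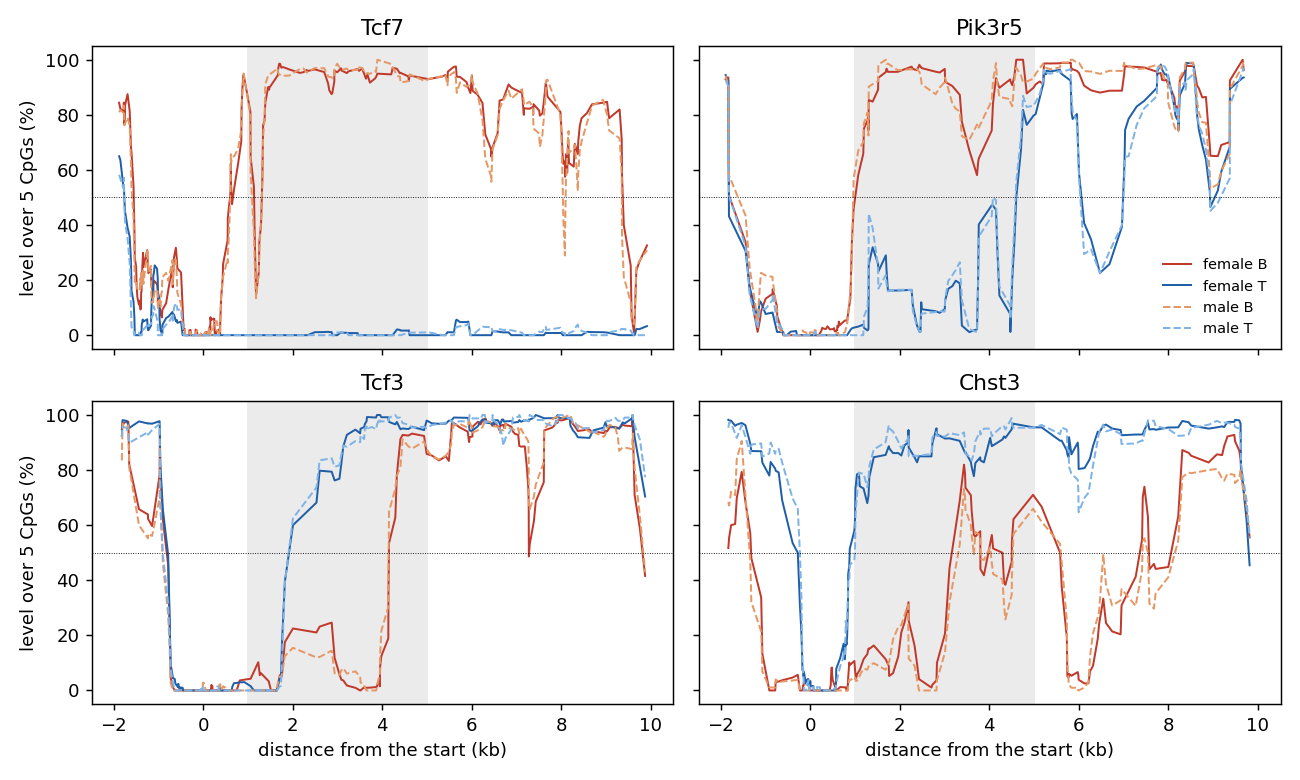
Methylation level (%) over running sets of 5 CpGs against distance from the start (kb) for Tcf7, Pik3r5, Tcf3 and Chst3, 1 line per file; the shaded band is +1 to +5 kb and the dotted line the 50% level that sets the edge. The lines of both sexes run together within a cell type, and B and T cells part at the downstream edge, near 600 bp at Tcf7 and 2005 bp at Tcf3.

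Of 46 genes listed for B cell identity and signalling, 15 were members, and 9 of these were called lower and 3 higher in B cells, with a median difference of -13.1 points. Over all members 3.24% were lower and 6.27% higher, with a median of 0.27 points. This list, like the others, was chosen with earlier results of these data known, so its counts are descriptions and not independent support. The listed genes lower in B cells were Tcf3, Lyn, Pik3ap1, Ikzf3, Irf8, Plcg2, Swap70, Ralgps2 and Syk. Irf8, a transcription factor of B and myeloid cells, was at 66.8%, 93.9%, 68.1% and 94.0% in the 4 files. Ikzf3, which encodes Aiolos, was at 37.6%, 65.8%, 33.6% and 70.3%. Plcg2, a phospholipase of B cell receptor signalling, was at 50.7%, 70.8%, 47.9% and 70.7%. Pik3ap1, an adaptor of the same pathway, was at 50.3%, 82.9%, 48.8% and 86.5%, and Syk, its kinase, at 28.4%, 41.1%, 28.9% and 38.0%. The 3 higher in B cells were the transcription factors Bach2 (21.3 points), Klf3 (17.2 points) and Foxo1 (10.4 points), which naive T cells also express. With CpGs of 10 or more reads only, Foxo1 and Syk fell short of 10 points, Ralgps2 turned to 2.42 points and Klf3 fell to 11.0 points. Swap70 was lost under Fisher's exact test within each sex.

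Of 54 genes listed for T cell identity and signalling, 14 were members, with 7 called higher and 1 lower in B cells and a median difference of 14.9 points, beside the same shares of all members (6.27% higher and 3.24% lower). Those higher were Tcf7, Prkcq, Tgfbr2, Bcl11b, Il4ra, Il6ra and Bach2, the last of which stands on both lists. Tgfbr2, a receptor subunit for TGF-beta, was at 60.9%, 21.6%, 58.3% and 21.4% in the 4 files. Il4ra and Il6ra, the receptors for interleukins 4 and 6, differed by 24.0 and 23.6 points. The 1 lower in B cells was Nfatc1, a calcium-regulated transcription factor of both lineages, at 24.9%, 32.8%, 22.6% and 39.9%. Most listed lineage genes were not members, since they did not meet the rule on length, autosome or CpGs at the start. The T cell list, too, was chosen with earlier results of these data known.

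The other lists are read against the 9.51% of all members called in either direction. Of the 35 developmental regulators 1 was called (2.86%), Hoxa3, at 13.3%, 25.6%, 15.1% and 24.4% in the 4 files, and the list median was -0.68 points. Median levels of this list were 9.51% to 11.3%, which left little room for a call lower in B cells. Over all members they were 82.41% to 83.57%, so the 2 shares are not alike in what could be called. Among 50 housekeeping members 2 (4%) were called, both higher in B cells, the translation factor gene Eif4g2 (11.1 points) and the insulator protein gene Ctcf (14.4 points), with a median of 0.72 points. Among 34 members of the chromatin and DNA methylation machinery 4 were called (11.8%), a share near that of all members. Mbd2, which reads methylated DNA, was higher in B cells by 31.4 points, as were the histone methyltransferase gene Setd1b by 10.7 and the acetyltransferase gene Crebbp by 10.2 points. The histone methyltransferase gene Setd2 was lower by 13.3 points. With CpGs of 10 or more reads only, Eif4g2, Setd1b and Crebbp fell short of 10 points. Eif4g2 and Setd1b also missed the threshold under limma on log2 ratios, and Eif4g2 without the sex term. None of 8 member genes listed as markers of other blood cells was called, and the largest differences there were at Hlf (-7.88 points) and Flt3 (-6.80 points).

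Female and male cells differed at few members. Under the same model and 10 points, 8 members were called (0.0995%), which were all the regions called among the 13249 genes (0.0604%). At an unadjusted p under 0.05 there were 509 (6.33%), little above the share of 0.05 that passes without any difference. For cell type there were 2510 (31.2%). Lpgat1, a lysophospholipid acyltransferase gene, was at 59.04% in female B, 57.8% in female T, 35.6% in male B and 54.0% in male T cells, so that only the male B file stood apart. Tlk1, a kinase of chromatin assembly, was at 23.4% and 27.1% in female B and T cells and at 38.9% and 38.2% in male B and T cells. Sgce, a paternally expressed imprinted gene, was at 92.7% and 89.4% in females and at 79.2% and 82.1% in males, in the order B and T. Its start was also higher in females, at 52.0% and 52.3% against 41.4% and 43.0%. Slc5a6, Tulp4, Pura and Lcor had mean differences of 10.1 to 10.9 points in size. No such call was made by limma on log2 ratios, which gave 438 of 8044 members at an unadjusted p under 0.05.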

How the data were processed

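Whole-genome bisulfite sequencing was reported as 4 files, 1 for each sex and cell type. Per the labels, the authors aligned reads to mm10, and the submitters' processing notes name Trim Galore, FastQC and Bismark 0.13.1. Duplicate handling and conversion rates are not given in the sources used here. For each CpG the authors deposited the methylation level as a fraction, with the read count behind it. Both strands were merged, and CpGs under 5 reads were absent. Methylated reads were recovered as fraction times coverage, rounded (every fraction lay within 0.001 of a whole read). All 18216084 autosomal CpGs listed in the 4 files fell on a CG of GRCm38.

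Reads were pooled over each region (8 or more CpGs) and 1 kb window (3 or more). A quasi-binomial model with cell type and sex was fitted to all 13249 regions, in Python 3.11.15, and the dispersion (mean 1.84; 1.45 for windows, where the squeezing left 1 common value) was squeezed with limma 3.58.1 in R 4.3.3. The prior came from regions with at least 5 expected methylated and unmethylated reads in every file. In data simulated for the 13249 regions, 20 of 50 changes of 10 points were called, 49 of 50 of 20 points and 50 of 50 of 30 or 40 points, with 0 false calls. The simulation gave every region the same dispersion and placed changes only at levels away from both ends of the scale. It therefore cannot show how many false calls arise where spread differs between regions or pools. Intervals are 95% Wilson intervals, and an observed 0 was given an upper limit of 3 observations. Named genes were the 8 greatest differences in each direction among calls and the 6 greatest edge shifts in each direction, both ranked by the smaller of both sexes. To these came the 5 widest and narrowest domains, ranked by mean width over the 4 files, the sex calls and the called genes of each list. All other genes named were chosen after their values were seen, and some genes that met the rule are not reported here. The members and gene lists were chosen with earlier results of these data known. Other coverage minimums, priors, tests, thresholds, window sizes and edge definitions were tried.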

Additional observations from a re-analysis of the deposited data

Results flagged for a closer look

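The difference between B and T cells at Lpgat1 differed in sign between the sexes, but in females it was within counting error. It was 1.3 points (females; Wilson intervals 55.5% to 62.5% in B and 54.9% to 60.6% in T cells) against -18.4 points (males), which lie 19.7 points apart, while the fit over both sexes gave an adjusted p of 0.000363 for cell type (quasi-binomial model). Each sex has 1 file per cell type, so the difference between the sexes was not tested.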

How the results depend on the processing

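Counts of called regions were 765 and followed the smallest difference required, with 1529 at 5 points and 219 at 20 points. Called windows (1703) became 3438 at 10 points and 3102 in windows of 500 bp, of which more are tested. Edge shifts (348) became 703 at 250 bp and 155 at 1000 bp. They were 280 with runs of 3 CpGs, 400 with runs of 10, 237 at a level of 30%, 513 at 70% and 492 at 10 reads. Between the sexes, the 21 shifts farther out in females and 18 in males became 37 and 47 at 10 reads. The 8 calls between the sexes became 18 at 5 points, 3 with a coverage minimum of 10 reads and 0 with limma (438 of 8044 members at an unadjusted p under 0.05). Median width (1201 bp as the mean of the medians of the 4 files) was 1178 bp with runs of 3 CpGs, 1298 bp with runs of 10, 1012 bp at a level of 30%, 1427 bp at 70%, 1314 bp at 10 reads and 1163 bp without members that have another start nearby. Edges farther out in T cells outnumbered those farther out in B cells with every run length, edge level, coverage minimum and shift size tried. The share of calls higher in B cells was 65.9%, and 60.1% to 70.8% over the alternatives. Centring on the median of all regions, and calls in females or in males alone, were added after seeing the data. Of 38 called genes tested individually, 31 were called in the same direction under all 6 alternatives run for single genes (both other priors, limma, no sex term, Fisher's exact test within each sex, and 10 reads). The difference itself was recomputed only at 10 reads, where Ralgps2 turned to 2.42 points from -13.1 points and Syk, Foxo1, Setd1b, Crebbp and Eif4g2 fell below 10 points. Calls were also lost at Swap70 with Fisher's exact test within each sex, at Eif4g2 and Setd1b with limma, and at Eif4g2 without the sex term. The cause was not tested. No paired analysis was possible because the groups share no replicate number, and no replicate could be left out because each group has 1 file. Single edges are resolved to about the 381 bp spanned by 5 CpGs at the median member. The 75th percentile of this span was 605 bp, above the 500 bp needed to count a shift.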

Other observations

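Of the 1266 members with a called window of 1 kb, 22 had called windows that pointed both ways within the same 4 kb. The 946 with a single called window could not show this. The matching share over all genes was not determined, and the genes described here were chosen after their values were seen. At Nek8, a kinase of primary cilia, the window from +1 to +2 kb was at 93.4%, 63.6%, 89.7% and 60.3% in the 4 files, in the order used above. The next window was at 22.1%, 95.8%, 22.2% and 96.7%, so that the state crossed over between neighbouring kilobases. At Heyl, a target of Notch signalling, the window from +3 to +4 kb was at 76.1%, 47.3%, 76.8% and 43.6% and the next at 38.1%, 92.2%, 33.5% and 96.1%. Arl5a, a small GTPase, was at 41.0%, 70.2%, 35.2% and 67.7% from +1 to +2 kb and at 77.6%, 31.8%, 77.0% and 33.6% from +3 to +4 kb. Vsir, an inhibitory receptor of T cells, was at 69.8%, 29.2%, 67.3% and 27.5% from +1 to +2 kb and at 37.7%, 60.3%, 37.1% and 55.2% in the next window. At each of these genes both sexes gave the same crossing.

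Starts between 20% and 80% in all 4 files were found in 65 members. Imprinted genes among them were Peg3 (43.1% to 49.4%), Peg10 (43.5% to 53.6%), Gnas (41.4% to 56.8%), Igf2r (34.5% to 47.1%), Usp29 (43.3% to 49.2%) and Sgce (41.4% to 52.3%). The region of Gnas stayed intermediate, at 48.7%, 49.3%, 49.9% and 48.7% in the 4 files. That of Igf2r was methylated, at 95.5%, 86.6%, 94.6% and 88.0%. Mcoln3 (start at 40.1%, 63.9%, 35.3% and 60.9%) and Tomm20l (37.9%, 58.4%, 40.6% and 52.1%) were intermediate and higher in both T cell files at the start itself.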
